A study of Caenorhabditis elegans with 6 samples.

Results

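The cuticle collagens are the structural proteins of the exoskeleton of *Caenorhabditis elegans*, and their transcripts were examined here in wild-type animals and in animals with the *nr2041* mutation in *nhr-49*, a gene that encodes a nuclear hormone receptor known for control of fatty acid metabolism. Members were the genes of the expression table whose symbol begins with *col-*, together with 19 collagen genes named for the body shape of their mutants (*dpy*, *rol*, *sqt* and *bli* genes), provided that they were above 0 in at least 1 library. The table held 178 such genes, of which 9 were at 0 in every library, leaving 169 members among 19579 genes above 0 and 46739 genes in all. Whole-animal mRNA was sequenced from 3 biological replicates of strain PMD121, which is wild type at *nhr-49*, and 3 of strain PMD122, which is homozygous for *nhr-49(nr2041)*. All animals were grown at 20°C on *E. coli* HT115 carrying the empty RNAi vector throughout development and were collected as late L4 larvae, so the empty-vector feeding was shared by mutants and controls. Both strains were kept as F2 homozygotes from a cross of N2 to STE68. Each genotype is therefore 1 strain, and an effect of the *nr2041* allele cannot be told apart from other differences between the 2 strains.

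The cuticle is laid down by the hypodermis, a sheet of epidermal cells, and is rebuilt at every molt in a wave of collagen gene expression. Collagen chains are hydroxylated and folded in the endoplasmic reticulum, clipped by proteases, secreted, and cross-linked outside the cell. Some collagens are used at every stage, others belong to the furrows or annuli that ring the body, and others are made only for the dauer or adult cuticle, so collagen levels change steeply with developmental time within the last larval stage.

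The deposited values are RPKM, which are read numbers scaled for gene length and for the size of the library. Whole read counts could be recovered from them for every gene above 0, and the implied library totals ran from 24523159 to 30183162 reads. The 2 genotypes were compared with limma on log2(RPKM + 1) over 13965 genes, those that reached 1 RPKM in 3 or more libraries, and a gene passed at a Benjamini-Hochberg adjusted p under 0.05. Fold changes are given on that scale, mutant over wild type, and are smaller than the true change where RPKM is low. *nhr-49* itself had 39.4, 40.8 and 37.8 RPKM in wild type and 26.1, 22.1 and 26.1 RPKM in the mutants, a log2 fold change of -0.65 (adjusted p = 0.016), which separated the libraries as labelled. Without wild-type replicate 1, 2 or 3 or mutant replicate 2 its adjusted p was 0.093, 0.055, 0.083 or 0.082. Of 8 hypodermal genes that are not collagens all were read in every library, with a summed level of 533 to 802 RPKM in wild type and 757 to 983 RPKM in the mutants. In RNA from whole animals, fewer cells of a type and less RNA per cell cannot be told apart.

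Of the 169 collagens, 133 reached the level needed for the test and 36 did not, the latter never exceeding 2.01 RPKM in any library. Among those tested, 118 had a mean of at least 10 RPKM, 87 of at least 100 RPKM and 16 of at least 1000 RPKM. Only *col-176* and *col-135* passed the test in the comparison of genotypes by limma, both higher in the mutants, and 0 members passed in the lower direction. That is 2 of 133 collagens, beside 4.13% of all genes tested (3.32% higher and 0.816% lower). Both also exceeded the study's threshold of 0.5 for the absolute log2 fold change, beside 4.12% of all genes. limma voom on the recovered reads likewise gave 2 higher and 0 lower, beside 3.29% and 0.859% of all genes. At an unadjusted p under 0.05 there were 3 collagens higher and 8 lower, 8.27% of those tested, beside 13.2% of all genes (10.9% higher and 2.28% lower). The libraries of the 2 genotypes did not overlap for 9 collagens, 6 lower and 3 higher in the mutants, or 6.77% of those tested, beside 21.4% of all genes (3.78% lower and 17.6% higher). Of these 9, *col-176*, *col-135* and *col-143* entered the test through 1 genotype only and so had to differ. The others were *col-110*, *col-157*, *col-76*, *col-99* and *dpy-4*, lower, and *col-172*, higher, with log2 fold changes between -0.59 and 0.34 and adjusted p values of 0.078 to 0.577.

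**Figure D1:**
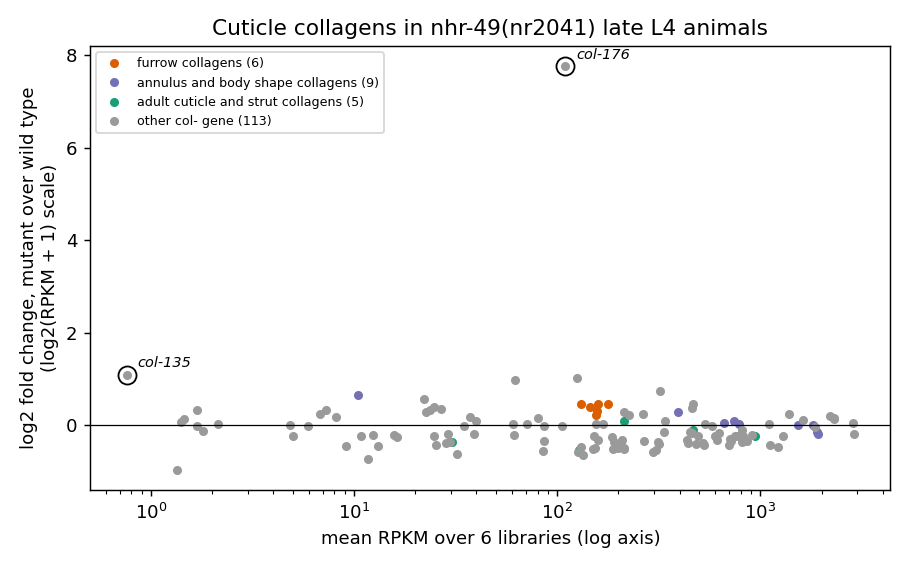
Log2 fold change of mutant over wild type, on the log2(RPKM + 1) scale, against the mean RPKM over 6 libraries (log axis) for the 133 cuticle collagens tested, 1 point per gene, coloured by role. The 2 ringed genes, *col-176* at 7.77 and *col-135* at 1.09, passed the test, and the median of all points was -0.17.

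*col-176* was read only in the mutants. This gene lies on the X chromosome of WBcel235 (chrX:10077597-10078728, plus strand). It had 0 reads in each of the 3 wild-type libraries, and 7028, 5726 and 6113 reads in the mutants, or 266, 198 and 193 RPKM. No library of either genotype came near the other. The gene entered the test through the mutants only, so a lack of overlap was fixed by the filter. The log2 fold change was 7.77 ± 0.15 (SE, adjusted p = 7.99e-07). Because wild type was at 0, the fold is a lower bound: the lowest mutant library was at least 1884-fold above 3 reads in wild type, taken as the limit of each library, which comes to at most 0.103 RPKM. Among the collagens *col-176* ranked 60 by mean level in the mutants, so it was a moderately abundant collagen there. Its adjusted p stayed between 8.12e-09 and 2.01e-04 over all 15 alternative settings and left-out libraries. With wild type at 0 in every library, this range adds no support beyond the reads themselves. The log2 fold change hung on the setting, at 11.1 with a pseudocount of 0.1 and 13.7 with limma voom.

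The genes on either side of *col-176* were read in all libraries of both genotypes. *dao-4*, whose annotated end is 1239 bases away, had 188, 114 and 157 RPKM in wild type and 170.3, 113 and 139 RPKM in the mutants, and its libraries overlapped. *ZC373.5*, 3205 bases away, had 9.77, 9.75 and 10.8 RPKM in wild type and 12.8, 7.42 and 8.07 RPKM in the mutants. *W07E11.1*, 5893 bases away on the other side, did change: it had 22.5, 20.2 and 21.9 RPKM in wild type and 12.8, 12.4 and 14.6 RPKM in the mutants (log2 fold change -0.66, adjusted p = 0.021). A gene silent in every wild-type library was not unusual in itself, since 749 genes of the table were at 0 in all 3. Of those, 44 had at least 1 RPKM in every mutant library and 11 had at least 10 RPKM, whereas 0 genes showed the opposite pattern at 1 RPKM. Of the 44 genes, 20 lie on chromosome I, which carries *nhr-49*, 10 on V, 8 on II and 1 on IV, while *col-176* was the only one on X and 4 had no unique position. Apart from *homt-1*, those on chromosome I lie together between bases 12245456 and 12404489, whereas *nhr-49* begins at base 9869651. Those on II lie between bases 2346972 and 2374320 or between 3839862 and 3854615. What these runs of nearby genes share was not tested.

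**Figure D2:**
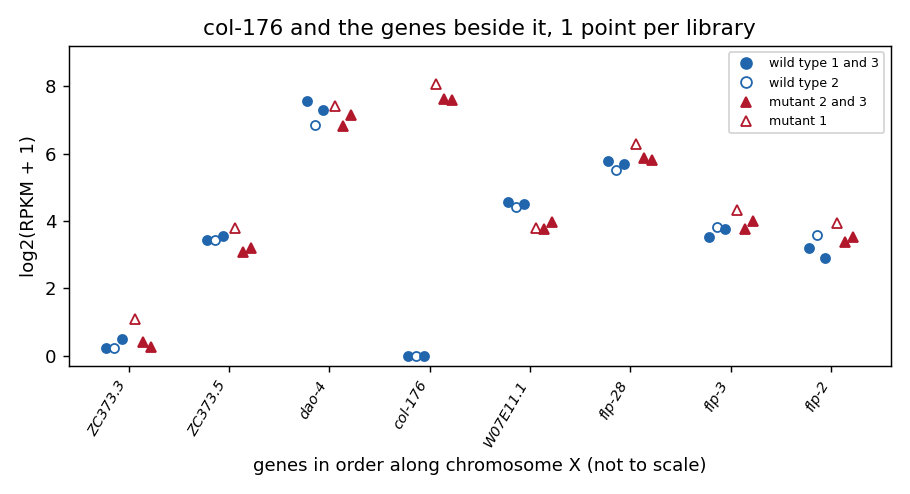
Level of *col-176* and of the genes beside it on the X chromosome, as log2(RPKM + 1), 1 point per library (circles wild type, triangles mutant, open symbols wild-type replicate 2 and mutant replicate 1). *col-176* sits at 0 in all 3 wild-type libraries and at 193 RPKM or more in all 3 mutant libraries, while *dao-4* lies between 113 and 188 RPKM in both genotypes.

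*col-135* (chrIV:15129655-15131797, minus strand) was barely transcribed in either genotype. It had 8, 5 and 9 reads in wild type and 61, 81 and 94 reads in the mutants, or 0.127, 0.0801 and 0.159 RPKM beside 1.20, 1.45 and 1.54 RPKM. All mutant libraries lay above all wild-type libraries, with a ratio of mean RPKM of 11.4. The gene entered the test through the mutants only, so this lack of overlap was fixed by the filter. The log2 fold change was 1.09 ± 0.14 (SE, adjusted p = 0.0038). With quantile normalization the value was 0.68 and no longer passed (adjusted p = 0.060). Over 14 settings that could test it the adjusted p ran from 0.0010 to 0.060. As the gene entered through the mutants only, this range adds no support beyond the reads themselves. The annotated genes on either side, *M199.9* and *M199.8*, had at most 0.247 RPKM in any library.

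The other 131 collagens tested did not pass. The median log2 fold change was -0.17 over the 133 collagens and 0.10 over all genes tested, and 81 collagens (60.9%) were below 0, beside 32.7% of all genes. With quantile normalization the medians were -0.19 and -0.04 and the shares below 0 were 67.7% and 57.1%. With library medians set equal the medians were -0.29 and -0.02 and the shares 74.4% and 53.97%. *col-110* came nearest to the threshold, with 158, 144 and 155 RPKM in wild type and 120.5, 84.7 and 100.4 RPKM in the mutants. Its libraries did not overlap, and the log2 fold change was -0.59 ± 0.14 (SE, adjusted p = 0.078). It passed with quantile normalization (adjusted p = 0.022), with library medians set equal (0.021), without mutant replicate 1 (0.012) and without that library and wild-type replicate 2 together (9.94e-04). It did not pass under the other 11 alternatives, with an adjusted p of up to 0.307, reached without wild-type replicate 3. *col-143* had 3.26, 1.84 and 1.30 RPKM in wild type and 0.883, 0.586 and 0.234 RPKM in the mutants (log2 fold change -0.97, adjusted p = 0.126), on no more than 100 reads in any library. It passed with quantile normalization (adjusted p = 0.030) and without wild-type replicate 2 and mutant replicate 1 together (0.047), and its adjusted p reached 0.333 over the other settings.

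The furrow collagens shared an order of the wild-type libraries and differed more in the mutants. Loss of any of *dpy-2*, *dpy-3*, *dpy-7*, *dpy-8*, *dpy-9* and *dpy-10* removes the circumferential furrows and leaves a short, fat animal, and their products are thought to be made together early in each molting cycle. All 6 were tested and 0 passed, with log2 fold changes from 0.21 to 0.46 and a median of 0.42. *dpy-7* had 127, 190.0 and 135.3 RPKM in wild type and 265, 172 and 182 RPKM in the mutants (log2 fold change 0.45, adjusted p = 0.436). *dpy-10* had 93.8, 138 and 101 RPKM in wild type and 188, 124 and 144 RPKM in the mutants (log2 fold change 0.45, adjusted p = 0.395). *dpy-3* had 124, 180.2 and 131 RPKM in wild type and 172, 162 and 161 RPKM in the mutants (log2 fold change 0.21, adjusted p = 0.628). Wild-type replicate 1 was the lowest and replicate 2 the highest wild-type library for each of the 6 genes. Mutant replicate 1 was the highest mutant library for each, as for 76.7% of collagens and 53.5% of all genes tested. Its ratio to the mean of the other mutant libraries was 1.41 to 1.51 for *dpy-2*, *dpy-7*, *dpy-9* and *dpy-10*. For *dpy-3* and *dpy-8* that ratio was only 1.06 and 1.09. The values of *dpy-2*, *dpy-8* and *dpy-9* lay in the same range, from 103 to 237 RPKM over all libraries. The 8 hypodermal genes that are not collagens had log2 fold changes from 0.12 to 0.51 with a median of 0.39, a range that holds all 6 furrow values, and 0 of them passed.

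The collagens of the annuli and of body shape included some of the steadiest members. *dpy-4*, *dpy-5*, *dpy-13*, *dpy-17*, *rol-6*, *rol-8*, *sqt-1*, *sqt-2* and *sqt-3* were tested and 0 of the 9 passed. *sqt-3*, needed for body shape and able to mutate to dumpy, roller or squat forms, had 1495, 1689 and 1409.9 RPKM in wild type and 1713, 1478 and 1408 RPKM in the mutants, a log2 fold change of 0.00 (95% interval -0.28 to 0.28). *dpy-13* had 2132, 2017 and 1831 RPKM in wild type and 1915, 1923 and 1588 RPKM in the mutants (log2 fold change -0.14, interval -0.42 to 0.13). *dpy-4* had 2142, 2050.5 and 1945 RPKM in wild type and 1868, 1930.0 and 1619 RPKM in the mutants. The libraries of *dpy-4* did not overlap, yet its log2 fold change of -0.18 did not pass (adjusted p = 0.542). *dpy-5*, *rol-8*, *sqt-1* and *sqt-2* were within 0.09 of a log2 fold change of 0, and *rol-6*, whose dominant mutation is a common transgenic marker, was at 0.29 (adjusted p = 0.602).

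*dpy-17*, which encodes a collagen that acts with *sqt-3*, was the exception in scatter. It had 6.16, 13.1 and 5.43 RPKM in wild type and 15.02, 11.2 and 11.7 RPKM in the mutants. Wild-type replicate 2 lay among the mutant libraries, and the log2 fold change of 0.65 did not pass (adjusted p = 0.417). Without wild-type replicate 2 it was 1.00 (adjusted p = 0.024). *dpy-14* was not tested, at 0.320 to 0.572 RPKM.

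**Figure D3:**
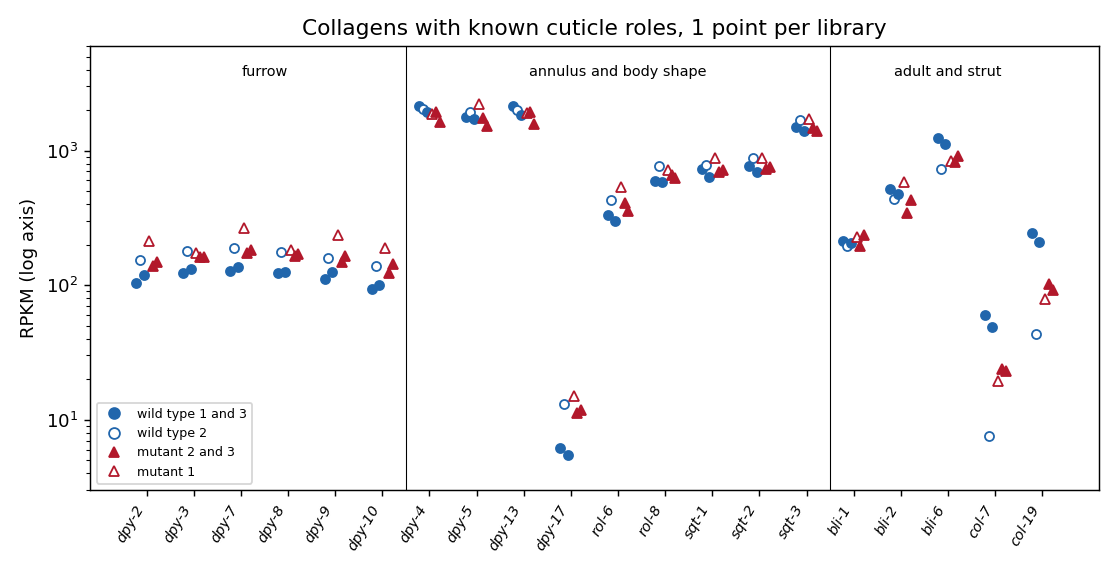
RPKM (log axis) of the 20 tested collagens with known cuticle roles, 1 point per library (circles wild type, triangles mutant, open symbols wild-type replicate 2 and mutant replicate 1). *dpy-4*, *dpy-13* and *sqt-3* are tight and lie above 1000 RPKM in all libraries, the furrow collagens are lowest in wild-type replicate 1, and *col-7* and *col-19* are lowest in wild-type replicate 2.

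The collagens of the adult cuticle differed in scatter, and 0 of the 5 tested passed. The SD within a genotype, on the log2(RPKM + 1) scale, was 0.114 for *bli-1*, 0.284 for *bli-2* and 0.295 for *bli-6*. It was 0.971 for *col-19* and 1.10 for *col-7*. *bli-1* and *bli-2* encode collagens of the struts that join the layers of the adult cuticle. *bli-1* had 214, 195 and 204 RPKM in wild type and 228, 195 and 235.4 RPKM in the mutants (log2 fold change 0.10, adjusted p = 0.759). *bli-2* had 516, 439 and 476 RPKM in wild type and 582, 342 and 433 RPKM in the mutants (log2 fold change -0.11, adjusted p = 0.846). For neither did the genotypes separate. *bli-6*, another blister gene, had 1247, 727 and 1117 RPKM in wild type and 842, 823 and 906 RPKM in the mutants.

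*col-19* and *col-7* are made for the adult cuticle and are used as markers of the switch from larval to adult hypodermis. *col-19* had 244, 43.6 and 211 RPKM in wild type, and 79.1, 102 and 92.1 RPKM in the mutants. *col-7* had 59.5, 7.61 and 48.8 RPKM in wild type, and 19.3, 23.8 and 22.98 RPKM in the mutants. In both, wild-type replicate 2 was the lowest of all 6 libraries, wild-type replicates 1 and 3 were the highest, and the 3 mutant libraries were close together between them. The log2 fold change of *col-19* was -0.53 (95% interval -1.90 to 0.84, adjusted p = 0.746), and with wild-type replicate 2 left out it was -1.31 (adjusted p = 0.0030). The dauer collagens *col-2* and *col-40* were not tested, with at most 0.210 RPKM in any library.

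The scatter of *col-19* was shared by a block of collagens. Of the 117 members with a mean of at least 10 RPKM and a value above 0 in wild type, 22 had a level in wild-type replicate 2 under 0.5 of the mean of the other wild-type libraries, 18.8% of these collagens, beside 3.21% of the 7501 genes at that level. Their ratios ran from 0.127 for *col-137* to 0.330 for *col-120*, with a median of 0.224, and the next member, *col-113*, was at 0.553, so a gap set them off from the others. Summed over the 22 genes, the level was 5641, 1241 and 4693 RPKM in wild type and 2181, 2437 and 2378 RPKM in the mutants. Wild-type replicate 1 was above replicate 3 in 22 of 22, beside 87.6% of the 241 genes of the whole table with a ratio this low. In 22 of 22, all 3 mutant libraries lay above wild-type replicate 2 and below both other wild-type libraries, an arrangement found in 33.6% of those 241 genes.

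Members of that block differed in level and shared the pattern. *col-124* had 382, 55.3 and 302 RPKM in wild type and 122.3, 133 and 132 RPKM in the mutants. *col-122* had 514, 143.05 and 459 RPKM in wild type and 177, 236 and 238 RPKM in the mutants. *col-137* had 70.3, 8.10 and 57.5 RPKM in wild type and 38.2, 34.6 and 31.3 RPKM in the mutants. The log2 fold changes of *col-62*, *col-184* and *col-152*, which follow the same course, were -0.62, -0.64 and -0.73, with adjusted p values of 0.696, 0.624 and 0.605. The block was spread over the genome, with 8 genes on chromosome IV, 5 on X, 3 on I, 3 on V, 2 on II and 1 on III. Some lie side by side: *col-7* and *col-62* are 529 bases apart, *col-126* and *col-127* 510.0 bases, and *col-178* and *col-179* 997 bases. Neighbours did not always share the ratio. *col-20*, with a ratio of 0.205, sits between *col-17* at 1.51, 2093 bases away, and *col-73* at 0.854, 1306 bases away. Reads that fit neighbouring collagens equally well could have been divided between them by the authors' counting, so values of such neighbours may be less certain. Whether these neighbours are alike in sequence was not tested.

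The *vit* genes, which encode the yolk proteins first made around the onset of adulthood, were likewise lowest in wild-type replicate 2 and highest in wild-type replicate 1 when summed. Their summed level over 6 genes was 1190 RPKM in wild-type replicate 1, 252 RPKM in replicate 2 and 1110.5 RPKM in replicate 3, and 329, 603 and 577 RPKM in the mutants. All 6 were above 0 in every library, and 0 of 6 passed the test of genotype, with log2 fold changes from -1.001 to -0.04. Their part in the collagen pattern was not tested.

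Another 17 members ran the opposite way, with wild-type replicate 2 more than 1.5 times the mean of the other wild-type libraries, 14.5% of these collagens, beside 2.88% of all genes at that level. *col-41* was the most extreme, with 26.4, 229 and 39.1 RPKM in wild type and 202, 205 and 48.5 RPKM in the mutants. In this gene mutant replicate 3 sat with wild-type replicates 1 and 3, and the other mutant libraries sat with wild-type replicate 2. *col-54* had 22.3, 78.7 and 25.1 RPKM in wild type and 126, 84.2 and 33.2 RPKM in the mutants, and *col-90* had 138, 455 and 158 RPKM in wild type and 553, 420.4 and 198 RPKM in the mutants. Their log2 fold changes of 1.01, 0.98 and 0.74 were the largest positive values among members that did not pass, with adjusted p values of 0.671, 0.554 and 0.614. Mutant replicate 1 was the highest mutant library in 16 of the 17, close to the 93.5% found among the 216 genes of the whole table with this high ratio. The set included very abundant collagens, among them *col-144*, *col-10* and *col-117*.

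**Figure D4:**
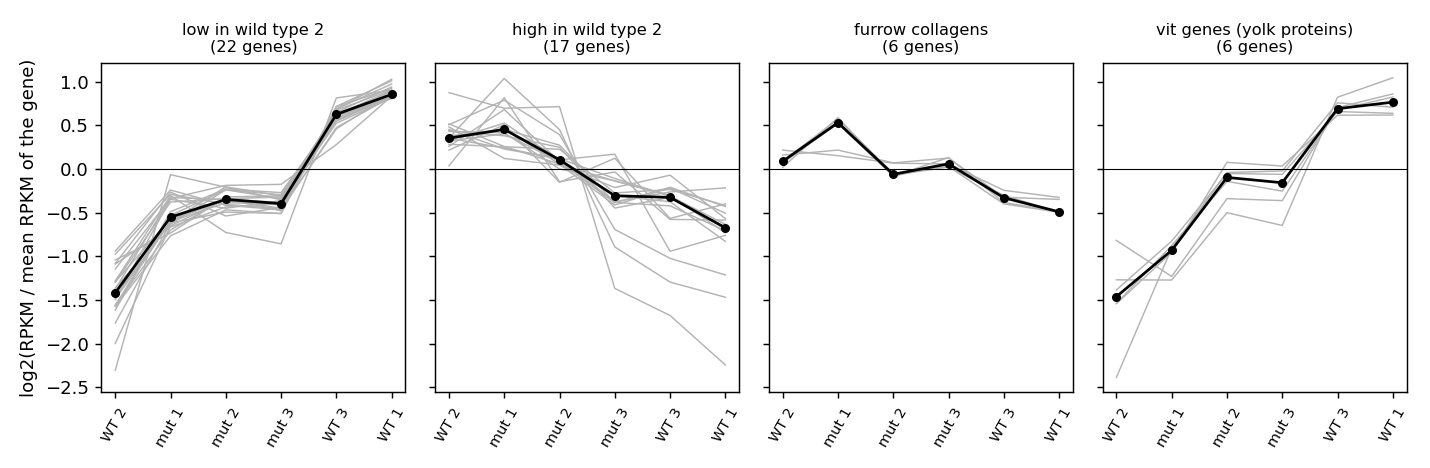
Level of each gene in each library relative to its own mean over 6 libraries (log2 scale), grey lines for genes and the black line for their median, for the 22 collagens low in wild-type replicate 2, the 17 high in it, the 6 furrow collagens and the 6 *vit* genes. Libraries are placed from wild-type replicate 2 through the mutants to wild-type replicates 3 and 1, and the first set has a summed 1241 RPKM at the left end and 5641 RPKM at the right end while each furrow collagen is higher in mutant replicate 1 than in the other mutant libraries.

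Replicates scattered more in the collagens than in the table as a whole. The median SD within a genotype on the log2(RPKM + 1) scale was 0.331 over the 133 members and 0.216 over all genes tested, and among genes with a mean of at least 10 RPKM it was 0.331 and 0.185. In wild type at that level the medians were 0.331 for collagens and 0.115 for all genes, and in the mutants 0.251 and 0.206. The steadiest members were *dpy-4*, *bli-1*, *col-73*, *col-34* and *dpy-13*, with SDs of 0.107 to 0.136. The most variable were *col-41*, *col-137*, *col-7*, *col-124* and *col-54*, with SDs of 0.977 to 1.43. *col-34* illustrates the former, at 87.6, 87.5 and 85.8 RPKM in wild type and 97.6, 82.5 and 76.9 RPKM in the mutants. Wild-type replicate 1 held the highest wild-type value for 79 of the 133 collagens and replicate 2 the lowest for 74, whereas replicate 1 was highest for 32.4% of all genes and replicate 2 lowest for 42.5%.

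In the mutants, replicate 1 stood apart. It was the highest mutant library for 102 of the 133 collagens, 76.7%, beside 53.5% of all genes tested, and replicate 3 was the lowest for 81. Across 117 members, the log2 ratio of wild-type replicate 2 to its fellow libraries and that of mutant replicate 1 to its fellow libraries had a Pearson r of 0.61 and a Spearman rho of 0.50, and Pearson r was 0.44 across the 7501 genes at that level. Genes are not independent replicates, and these values describe the libraries only. The body wall muscle list was also low as a sum in mutant replicate 1. Its 10 of 10 genes were above 0 in every library, with summed levels of 6641, 6733 and 6478 RPKM in wild type and 4209, 6110.1 and 5715 RPKM in the mutants. The myosin gene *unc-54* had 542 RPKM there, 1136 and 991 RPKM in mutant replicates 2 and 3, and 1270 to 1272 RPKM in wild type. *unc-27* was only slightly lower there, at 866 RPKM beside 896 to 1029 RPKM. *tni-1* went the other way among the mutants, with 172 RPKM in replicate 1 beside 163 and 156 RPKM. All genes of the list but *tni-1* were lowest in mutant replicate 1. The list was also lower in the mutants as a group. All 10 log2 fold changes were below 0, beside 32.7% of all genes, with a median of -0.44, and 0 passed. For all but *lev-11* and *tni-1* the mutant libraries lay below the wild-type libraries without overlap, beside 3.78% of all genes. The part of the muscle genes in the collagen values was not tested.

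**Figure D5:**
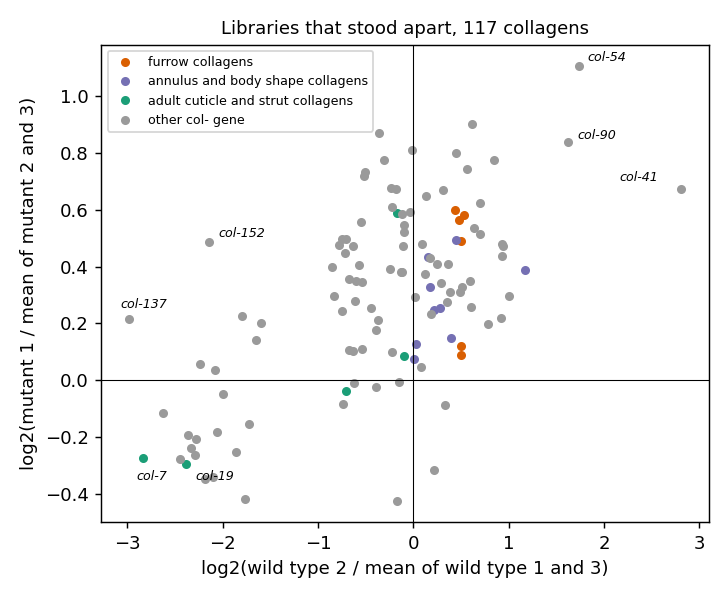
Log2 ratio of mutant replicate 1 to the mean of mutant replicates 2 and 3 against log2 ratio of wild-type replicate 2 to the mean of wild-type replicates 1 and 3, for 117 cuticle collagens with a mean of at least 10 RPKM, coloured by role. The 22 genes at the left, *col-19* and *col-7* among them, are separated by a gap from the rest, and Pearson r over all points was 0.61.

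Because these libraries stood apart, the comparison of genotypes was read with and without them. Without wild-type replicate 2, 24 of 133 collagens passed as lower in the mutants, beside 0.924% of all genes in that fit, and 3 of 133 passed as higher, beside 3.62%. Of the 24, 21 belonged to the block that was low in wild-type replicate 2. The block was picked by its values in that library, so leaving the library out had to widen the difference for its genes. The others were *col-8*, *col-71* and *col-77*. Without wild-type replicate 2 and mutant replicate 1, 55 collagens passed as lower (41.4%, beside 2.51% of all genes) and 11 as higher (8.27%, beside 6.80%). All 24 genes of the former fit were among the 55, and so were all 22 genes of the block. The 11 were *col-176*, *col-135*, *dpy-17*, *col-42*, *col-128* and the 6 furrow collagens, with log2 fold changes of 0.34 to 0.46 for the last group. Both libraries were left out because they stood apart in these same collagens. Leaving them out had to narrow the spread within a genotype where they lay furthest from the others. The counts are therefore no separate support for a difference between genotypes. The fit without both libraries rests on 2 per genotype, and 0 collagens passed as lower when all 6 libraries were used.

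By mean RPKM the leading 10 members were *col-73*, *col-3*, *col-144*, *col-10*, *col-117*, *dpy-4*, *dpy-13*, *col-125*, *dpy-5* and *col-167*. None of them passed the test. They held 30.01% to 39.5% of all collagen reads, most in wild-type replicate 2. *col-73* had 3456, 2779 and 3049 RPKM in wild type and 2811, 2701 and 2552 RPKM in the mutants (log2 fold change -0.20, adjusted p = 0.526). *col-3* had 2249, 3500 and 2738 RPKM in wild type and 3346, 3095 and 2296 RPKM in the mutants (log2 fold change 0.05, adjusted p = 0.939). The genotypes overlapped in both, and across the 10 genes the log2 fold changes lay between -0.20 and 0.19. *col-144*, *col-10*, *col-117* and *col-167* were each higher in wild-type replicate 2 than in the other wild-type libraries.

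The share of the library taken by collagen transcripts did not separate the genotypes. Reads in the 169 members made up 6.68%, 6.20% and 6.16% of gene reads in wild type and 6.75%, 5.92% and 4.94% in the mutants, a mean of 6.35% ± 0.287 (SD, n = 3) and 5.87% ± 0.909 (SD, n = 3). Mutant replicate 3 was the lowest and mutant replicate 1 the highest of all 6. The difference of -0.476 percentage points was larger in size than the SD in wild type and smaller than the SD in the mutants. An exact two-sided permutation test gave p = 0.5, where the smallest p possible with 3 against 3 is 0.1. The difference was -0.0098 without mutant replicate 3 and -0.918 without mutant replicate 1, and as a share of summed RPKM it was -0.857 (exact p = 0.3).

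Members lie on every chromosome, with 43 on IV, 32 on II, 31 on V, 28 on X, 21 on I and 13 on III, and 1 had no unique position in the annotation. A total of 51 belonged to 30 neighbouring pairs less than 5000 bases apart, and 2 pairs overlapped (*col-46* with *col-47*, and *col-159* with *col-160*). The neighbours *col-159* and *col-160* had similar means, 525 and 533 RPKM, and reads of overlapping genes cannot be assigned with certainty.

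Of the enzymes that turn collagen chains into cuticle, none passed the test. All 15 maturation enzymes in the table were tested and 0 passed, with log2 fold changes from -0.22 to 0.31 and a median of 0.01. *pdi-2*, which encodes a protein disulfide isomerase that serves as a subunit of prolyl 4-hydroxylase, had 1553, 1833 and 1739 RPKM in wild type and 1419, 1679 and 1632 RPKM in the mutants (log2 fold change -0.12, adjusted p = 0.713). *dpy-18*, the catalytic subunit of that enzyme, had 183, 174 and 184.3 RPKM in wild type and 163, 165 and 172 RPKM in the mutants, with no overlap and a log2 fold change of -0.12 (adjusted p = 0.661). *pdi-3* and *dpy-11*, a thioredoxin-like protein of the hypodermis, were at 0.01 and -0.01. The cuticulins and other matrix genes gave 0 of 10 tested, with *cut-2*, a cross-linked cuticulin, at 641, 742 and 479 RPKM in wild type and 589, 702 and 366 RPKM in the mutants. The related matrix proteins *noah-1* and *noah-2* had log2 fold changes of 0.33 and 0.26 (adjusted p = 0.511 and 0.541).

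The basement membrane collagens are not part of the cuticle and serve here for comparison. Of the 3 tested, 0 passed. The type IV collagen genes *emb-9* and *let-2* had log2 fold changes of -0.34 and -0.47 (adjusted p = 0.421 and 0.414). Both were lower in the mutants without overlap, beside 3.78% of all genes. *emb-9* had 282, 253 and 271 RPKM in wild type and 166, 243 and 234.6 RPKM in the mutants. *cle-1* was at -0.04, with overlapping libraries and its lowest value in wild-type replicate 2. For *emb-9* and *let-2* the lowest library was mutant replicate 1. The furrow collagens were highest in that same library among the mutants.

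The regulators of cuticle timing had a median close to that of all genes, but 0 were below 0, beside 32.7% of all genes. The libraries of *nhr-23*, *elt-1*, *elt-3* and *grh-1* did not overlap and were higher in the mutants, as were those of 17.6% of all genes. All 12 were tested and 0 passed, with log2 fold changes from 0.03 to 0.57 and a median of 0.16, beside 0.10 over all genes tested. *elt-3*, a GATA factor of the hypodermis, had the largest value: 15.4, 19.1 and 15.4 RPKM in wild type and 29.4, 23.9 and 22.3 RPKM in the mutants, with no overlap (log2 fold change 0.57, adjusted p = 0.108). *nhr-23*, a nuclear receptor required for molting, had 17.2, 18.4 and 19.2 RPKM in wild type and 19.3, 20.5 and 23.7 RPKM in the mutants. The most abundant regulators, *lin-42*, *myrf-1* and *blmp-1*, had log2 fold changes of 0.03, 0.18 and 0.09.

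Of 11 genes of the molting cycle, 1 passed. *acn-1*, which encodes an inactive relative of angiotensin-converting enzyme needed for molting, had 200.3, 224 and 199 RPKM in wild type and 134, 105 and 108 RPKM in the mutants. Every mutant library was below every wild-type library, and the gene fell by 0.85 on the log2 scale (SE 0.13, adjusted p = 0.0091). Without mutant replicate 2 its adjusted p was 0.053. *mlt-10*, another molting gene, had 242, 228 and 208 RPKM in wild type and 172, 161 and 152.2 RPKM in the mutants, without overlap, and a log2 fold change of -0.48 (adjusted p = 0.057, with a range of 0.0079 to 0.274 over the alternatives). *mlt-8* and *qua-1* were at 0.06 and 0.08 and their libraries overlapped.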

How the data were processed

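The authors deposited RPKM per gene and library, with the mean of each genotype, from poly(A) RNA. The submitters' notes name build WBcel235, the mapper and annotation release being not given in the sources used here. Coordinates came from Ensembl release 115. The group means were not used. Whole reads were recovered from the deposited RPKM within 0.001 reads for 100.0% of genes above 0. Recovered gene reads were 95.39% to 97.95% of the implied totals. limma 3.58.1 (trend and robust, statmod 1.5.0, R 4.3.3) was run on log2(RPKM + 1) with genotype as the only term, tested on simulated data. Other software was Python 3.11.15 with scipy 1.17.1, numpy 2.4.6, pandas 2.3.3 and matplotlib 3.10.9. Replicates came from separate biological samples. The members and lists were chosen with earlier results of these data known. Named were collagens that passed, the 10 highest in level, the 10 largest log2 fold changes that did not pass, all members of the role lists, the 5 most and 5 least variable, and, from other lists, genes that passed and up to 3 more by level. *col-8*, *col-20*, *col-42*, *col-71*, *col-77*, *col-113*, *col-120*, *col-128*, the members without overlap and the neighbours were named after their values were seen, as were other single genes outside that rule. Alternatives were quantile normalization, equal library medians, other filters and pseudocounts, limma voom, the replicate block and left-out libraries.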

Additional observations from a re-analysis of the deposited data

How the results depend on the processing

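With 6 libraries, 2 collagens were higher, 0 lower and 2 past the study's thresholds. Those were read here as an adjusted p under 0.05 by limma and an absolute log2 fold change above 0.5. The study used Baggerly's test, so these counts do not repeat its calls. The paper lists *col-60*, *col-71*, *col-79*, *col-120*, *col-152* and *col-176* among genes changed both in these mutants and by *hsf-1* RNAi. Of these, only *col-176* passed here with 6 libraries. Quantile normalization gave 1 higher and 2 lower, equal library medians gave 1 lower, and a filter of 5 RPKM, which removes *col-135*, gave 1 higher and 1 past the study's thresholds. An unadjusted p gave 6 past those thresholds. Without wild-type replicate 2 and mutant replicate 1 together, the counts were 11 higher, 55 lower and 54 past the thresholds, with 6 furrow, 1 annulus and body shape, 3 adult and strut collagens, 1 matrix gene and 2 regulators. Those 2 libraries were left out because they stood apart in these same collagens. Leaving out 1 library gave 2 to 3 higher, 0 to 24 lower (24 without wild-type replicate 2, 2 without mutant replicate 1), 2 to 27 past the thresholds, 0 to 1 annulus and body shape and 0 to 2 adult and strut collagens, and a log2 fold change of -0.69 to -0.57 for *nhr-49*. The median collagen fold change then ran from -0.23 to -0.01. The labels do not say whether replicates of the same number were paired, and pairing was not tested. Between libraries of the same number, correlations of deviations were -0.33, -0.16 and 0.34 over all genes tested. Over the collagens they were -0.59, 0.01 and 0.56. With the replicate block the collagen counts were 2 higher and 0 lower, *nhr-49* was at -0.65 with an adjusted p of 0.096, and *acn-1* had an adjusted p of 0.053. Causes of these shifts were not tested beyond the libraries left out. Low read numbers limit *col-135* and *col-143*.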
